A study of Mus musculus with 8 samples.

Results

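The 4 mouse Sall genes, Sall1, Sall2, Sall3 and Sall4, were followed across Thy1+ and cKit+ spermatogonia with and without the PRC1dKO genotype. They are 4 of the 23343 gene symbols in the deposited tables, and 5 of the 26099 transcript entries, since Sall2 has 2 entries and each of the others 1. The 4 genes were chosen by symbol because Sall4 and Sall1 were lower in both dKO populations in earlier results of the same data. Their dKO-against-control values are therefore given as a description, without a test. The comparison of cKit+ with Thy1+ cells was not itself used for that choice and was tested, but it runs on the same libraries, so its tests are not independent of the choice.

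Sall proteins are nuclear zinc finger proteins related to Drosophila spalt. Their C2H2 zinc fingers lie in well separated clusters, and an N-terminal motif recruits the NuRD chromatin remodelling and deacetylase complex, through which they can repress transcription. In the mouse testis Sall4 marks undifferentiated spermatogonia and is needed for spermatogonial differentiation. Sall1 is best known from the kidney, where the nephron progenitors need it. Sall2 is the most divergent member, and Sall3 is known from limb and nervous system development.

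RNA was sequenced in 8 libraries, 2 for each of 4 groups, all from C57BL/6 testes at postnatal day 7. The groups were Thy1+ spermatogonia labelled PRC1ctrl (Thy1 control), Thy1+ spermatogonia labelled PRC1dKO (Thy1 dKO), and cKit+ spermatogonia of the same 2 genotypes (cKit control and cKit dKO). PRC1 is Polycomb repressive complex 1, which ubiquitinates histone H2A and holds many developmental genes silent, and Ring1 and Rnf2 encode its catalytic subunits. The labels do not spell out the deleted alleles, the Cre driver, what the controls carry, or whether replicates came from separate animals, so p-values measure only the spread between these libraries. Libraries held 6763908 to 10976869 counts. CPM below is the count per 1000000 counts of the library after TMM scaling, and RPKM is the deposited value per kilobase of transcript. A gene passed the test when its edgeR quasi-likelihood p, adjusted by Benjamini-Hochberg over the 14907 genes tested, was under 0.05.

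The labels were checked against marker genes. Thy1 was at 22.0 ± 5.71 CPM in Thy1 control and 0.79 ± 0.51 CPM in cKit control (SD, n = 2 in every group), and Kit was higher in cKit than in Thy1 control by 1.68 ± 0.11 on the log2 scale (± SE, edgeR adjusted p = 3.7e-08). Neither Ring1 (log2 change 0.39 ± 0.54 in Thy1 dKO and 0.73 ± 0.50 in cKit dKO) nor Rnf2 (0.18 ± 0.13 and 0.02 ± 0.12) passed the dKO test in either population. Transcript counts over a whole gene do not show whether a part of it is deleted. The summed CPM of 18 germ cell markers was 3231 and 3527 in Thy1 control, 2934 and 2595 in Thy1 dKO, 2855 and 2240 in cKit control, and 677 and 947 in cKit dKO. Markers of somatic cells were present in every library, and none of the markers summed here was at 0 in both libraries of a group. The germ cell marker Nanos3 was at 0 in cKit dKO replicate 1. The sum over 14 Sertoli markers ranged from 563 to 777 CPM in the Thy1 libraries, 1301 to 1374 in cKit control and 1926 to 1985 in cKit dKO. For 8 Leydig markers it ranged from 2478 to 4072, 10746 to 12975 and 15008 to 17579 CPM. For 13 peritubular and stromal markers it ranged from 10347 to 13917, 3160 to 3236 and 5036 to 6288 CPM. For 10 endothelial markers the sums ran from 361 to 553, 226 to 235 and 453 to 469 CPM, and for 11 macrophage markers from 993 to 1529, 199 to 441 and 163 to 570 CPM. Markers of other cell types thus move with population and genotype, and their part in the Sall values was not tested. In such bulk RNA, fewer cells of a type and less RNA per cell cannot be told apart.

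In the deposited mm10 coordinates Sall1, on the minus strand like the other Sall genes, spans chr8:89027243-89044162, Sall2 chr14:52311177-52328670 with a second, shorter entry chr14:52311177-52316323 and Sall4 chr2:168748332-168767201. In GENCODE M21 an antisense gene, Gm14261 (chr2:168766143-168768108), overlaps the 5′ end of Sall4, and since the strand setting of the counting is not given, its reads cannot be told apart from those of Sall4. No other annotated gene overlaps a Sall gene, and no stretch of 50 bases was shared between the annotated transcripts of any pair of Sall genes. The RefSeq promoter table (GRCm38.p6) was matched for 2 of the 4 genes, Sall1 and Sall2. Since Polycomb complexes in mammals are known to gather at CG-rich start sites, the 250 bases before each start are shown 5′ to 3′ on the minus strand, with every CG dinucleotide in capitals. The windows are chr8:89044163-89044412 for Sall1, chr14:52328671-52328920 for the start of the longer Sall2 entry, and chr14:52316324-52316573 for the start of the shorter one.
Sall1: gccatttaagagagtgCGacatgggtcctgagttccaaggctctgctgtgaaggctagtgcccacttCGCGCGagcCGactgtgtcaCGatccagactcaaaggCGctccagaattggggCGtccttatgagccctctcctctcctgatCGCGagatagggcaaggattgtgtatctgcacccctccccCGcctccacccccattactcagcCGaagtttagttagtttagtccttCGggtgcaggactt
Sall2, longer entry: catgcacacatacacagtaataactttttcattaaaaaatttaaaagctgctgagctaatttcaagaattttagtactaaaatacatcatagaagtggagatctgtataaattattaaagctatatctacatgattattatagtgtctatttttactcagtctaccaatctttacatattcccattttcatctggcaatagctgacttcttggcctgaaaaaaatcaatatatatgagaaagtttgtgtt
Sall2, shorter entry: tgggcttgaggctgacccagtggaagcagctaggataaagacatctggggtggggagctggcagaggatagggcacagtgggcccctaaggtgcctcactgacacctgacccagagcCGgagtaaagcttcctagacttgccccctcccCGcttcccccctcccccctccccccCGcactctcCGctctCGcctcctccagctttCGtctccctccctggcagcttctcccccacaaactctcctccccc

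The Sall1 window holds 13 CG dinucleotides at 56.4% G+C. Of 32851 windows of the same length before RefSeq starts, 31.5% hold at least as many, and the median window holds 6. The longer Sall2 start has no CG in its window at 28.0% G+C, as have 7.87% of all windows. The shorter Sall2 start has 6 CG at 64.4% G+C, and 50.4% of windows hold at least 6. CG reads the same on both strands, so one search covers both. These counts describe the sequence alone, since no binding was measured.

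Sall4, the family member that marks undifferentiated spermatogonia, had the highest RPKM of the family in 3 of the 4 groups, all but cKit dKO. It stood at 174 and 191 CPM in Thy1 control (182 ± 12.1, SD, n = 2), 62.2 and 60.3 CPM in Thy1 dKO (61.2 ± 1.32), 132 and 118 CPM in cKit control (125 ± 10.3) and 14.2 and 18.2 CPM in cKit dKO (16.2 ± 2.79). The groups did not overlap: both Thy1 control libraries were highest, and both cKit dKO libraries lowest. The lowest library of any group, cKit dKO replicate 1, rests on 89 counts, and the highest number of counts, in Thy1 control replicate 2, was 1625. In dKO, Sall4 was 2.98-fold lower than in control in Thy1 cells (log2 change −1.57 ± 0.13 SE) and 7.70-fold lower in cKit cells (−2.94 ± 0.15). The gap between the effects was −1.37 ± 0.20 on the log2 scale. Such gaps are built from the contrasts by which the genes were chosen and carry no test.

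Sall1, the kidney progenitor member, showed the same order of groups at lower levels. Its values were 31.2 and 27.6 CPM in Thy1 control (29.4 ± 2.53), 10.9 and 7.22 CPM in Thy1 dKO (9.07 ± 2.62), 16.6 and 10.8 CPM in cKit control (13.7 ± 4.09) and 3.68 and 1.57 CPM in cKit dKO (2.63 ± 1.49). Both Thy1 control libraries were above all others and both cKit dKO libraries below all others, whereas cKit control replicate 2 lay just below the higher Thy1 dKO library. The cKit dKO libraries held 23 and 10 Sall1 counts, against 237 and 235 in Thy1 control. In dKO, Sall1 was 3.22-fold lower in Thy1 cells (−1.69 ± 0.32) and 5.26-fold lower in cKit cells (−2.40 ± 0.38). The gap between its effects was −0.71 ± 0.50. Leaving out cKit dKO replicate 2, the library of 10 counts, makes the cKit change −1.88, and leaving out replicate 1 makes it −3.08.

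Sall3, a member known from limb and nervous system development, differed in direction between the populations. It lies at chr18:80966374-80986578 on the minus strand, as deposited in mm10. It had 5.26 and 6.69 CPM in Thy1 control (5.98 ± 1.01), 14.9 and 17.4 CPM in Thy1 dKO (16.1 ± 1.81), 1.82 and 1.28 CPM in cKit control (1.55 ± 0.38) and 0.48 and 0.94 CPM in cKit dKO (0.71 ± 0.33). Both Thy1 dKO libraries were above every other library, and both cKit dKO libraries below every other. In dKO, Sall3 was 2.69-fold higher in Thy1 cells (1.43 ± 0.36) and 2.18-fold lower in cKit cells (−1.13 ± 0.56). The cKit value rests on 21 and 10 counts in control and 3 and 6 counts in dKO, and the Thy1 value on 40 and 57 against 132 and 128.

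Sall2, the divergent member, was the one whose level was higher in dKO in both populations. It had 16.2 and 17.8 CPM in Thy1 control (17.0 ± 1.18), 28.0 and 25.0 CPM in Thy1 dKO (26.5 ± 2.12), 16.2 and 20.0 CPM in cKit control (18.1 ± 2.71) and 35.4 and 27.4 CPM in cKit dKO (31.4 ± 5.61). All 4 dKO libraries were above all 4 control libraries, and within a genotype the populations overlapped. In dKO, Sall2 was 1.56-fold higher in Thy1 cells (0.64 ± 0.21) and 1.74-fold higher in cKit cells (0.80 ± 0.21). The gap between these effects was 0.16 ± 0.30.

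**Figure D1:**
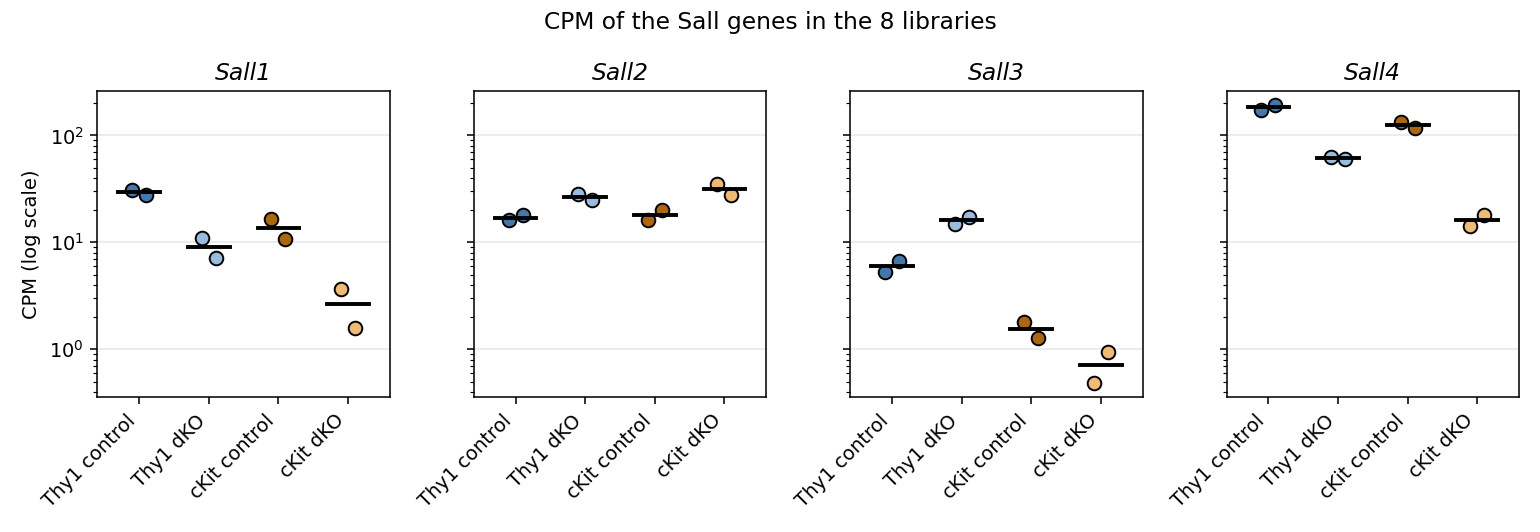
Level of each Sall gene in CPM (TMM-scaled, log axis) in each of the 8 libraries, by group, with the group mean. Sall4 and Sall1 have their lowest libraries in cKit dKO, Sall2 is higher in all 4 dKO libraries than in all 4 control libraries, and Sall3 is highest in Thy1 dKO, at 14.9 and 17.4 CPM.

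For all 4 genes the dKO and control libraries did not overlap in either population, and neither did those of 51.3% of all 14907 tested genes in Thy1 cells and 60.7% in cKit cells. In Thy1 cells the edgeR test was passed by 0.624% of all tested genes, 0.362% higher and 0.262% lower in dKO. In cKit cells it was passed by 28.6%, 13.2% higher and 15.4% lower. Nothing is read from these counts for the Sall genes, since these contrasts chose them. The control and the dKO libraries of each population enter both its dKO contrast and its comparison with the other population.

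The populations were compared within each genotype to ask how Sall RNA differs between Thy1+ and cKit+ cells. In control, Sall4, Sall1 and Sall3 were lower in cKit than in Thy1 cells and Sall2 did not pass, so 3 of 4 genes were lower where 10.3% of all tested genes were lower and 9.46% higher (19.7% in either direction). Sall3 fell by 1.92 ± 0.41 on the log2 scale (3.78-fold, edgeR adjusted p = 0.0038). In a fit of the cKit libraries alone Sall3 did not pass the filter on low counts. It was thus kept through its Thy1 libraries, where it is higher, and its call is not independent of the filter. Sall1 fell by 1.08 ± 0.31 (2.12-fold, edgeR adjusted p = 0.020). Sall4 fell by 0.54 ± 0.13 (1.46-fold, edgeR adjusted p = 0.0071). For Sall2 the change was 0.08 ± 0.21 (edgeR adjusted p = 0.84), with overlapping groups. The groups did not overlap for the other 3, nor for 59.7% of all tested genes. Single libraries decide some of these calls. Sall1 did not pass without Thy1 control replicate 1 (edgeR adjusted p = 0.14), without Thy1 control replicate 2 (0.075) or without cKit control replicate 2 (0.16), and Sall4 did not pass without Thy1 control replicate 2 (0.089) or cKit control replicate 2 (0.066). With limma on log2 RPKM none of the 3 passed in control, with adjusted p = 0.13 for Sall1, 0.060 for Sall3 and 0.22 for Sall4.

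In dKO the same comparison gave larger values. Again 3 of 4 genes were lower in cKit cells, where 20.0% of all tested genes were lower and 14.8% higher (34.8% in either direction). Sall3 fell by 4.47 ± 0.48 (22.2-fold, edgeR adjusted p = 6.7e-06), from 132 and 128 counts in Thy1 dKO to 3 and 6 in cKit dKO. This call too is not independent of the filter, which Sall3 passed through its Thy1 libraries. Sall4 fell by 1.91 ± 0.16 (3.77-fold, edgeR adjusted p = 5.5e-07). Sall1 fell by 1.79 ± 0.40 (3.47-fold, edgeR adjusted p = 0.0026). Its change was −2.45 without cKit dKO replicate 1 and −1.24 without replicate 2. These 3 genes passed with any single library left out. Sall2 was at 0.24 ± 0.21 (edgeR adjusted p = 0.40). Again the groups overlapped for Sall2 alone of the 4, and they did not overlap for 67.5% of all tested genes. Somatic markers moved with the population as well: in control 13 of 13 peritubular and stromal and 9 of 11 macrophage markers fell in cKit cells and none rose, 7 of 8 Leydig markers rose and none fell, 6 of 14 Sertoli markers rose and 1 fell, and 1 of 10 endothelial markers rose and 3 fell. In dKO 10 peritubular and stromal, 9 macrophage and 2 endothelial markers fell and none rose, while 8 Leydig and 8 Sertoli markers rose and none fell. Scaled to germ cell markers, 11567 of all 14907 tested genes were higher in cKit dKO than in Thy1 dKO and 161 lower (median 1.67). On that scale 5 peritubular and stromal markers were higher and 1 lower (median 0.34). Of the endothelial markers 9 were higher and none lower (median 1.46), and 1 macrophage marker was higher and 2 lower (median −0.51). The medians of these 3 lists were thus below that of all genes on both scales. The part of these cells in the Sall values was not tested. Whether the population change differs between genotypes was not tested for these genes, because that difference is the same quantity as the gap between the dKO effects.

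**Figure D2:**
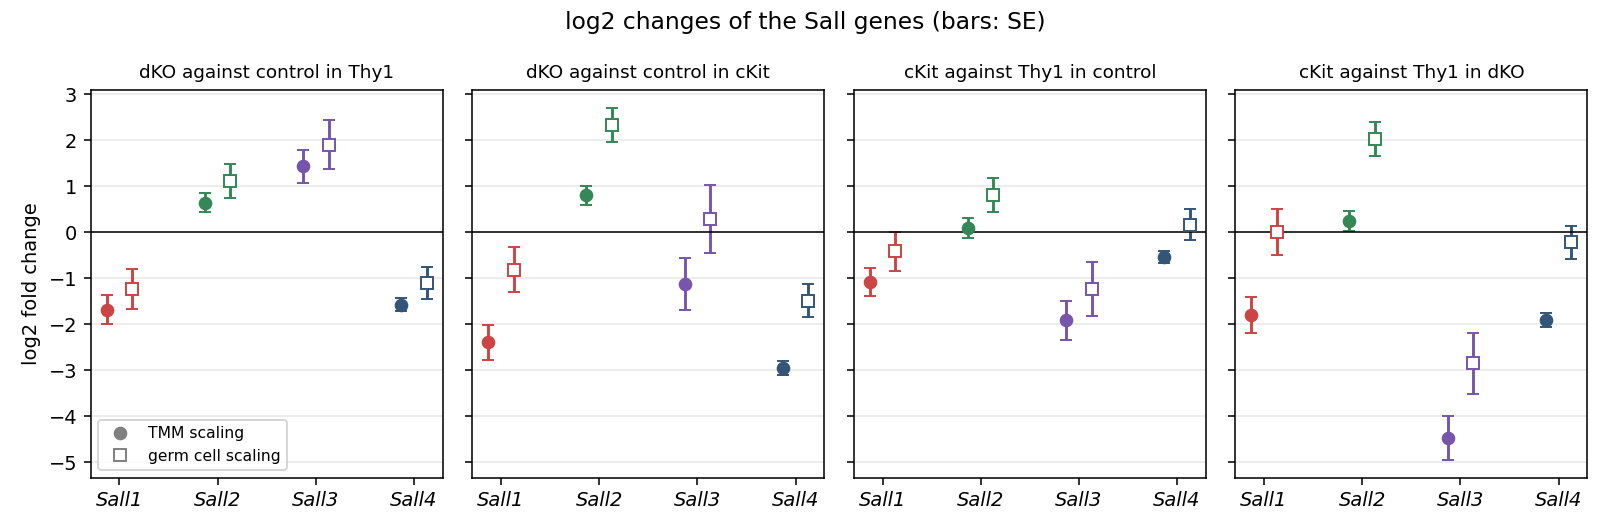
Log2 change of each Sall gene in the 4 comparisons, with bars of 1 standard error from edgeR. Filled circles are values with TMM scaling and open squares those scaled to germ cell markers. The dKO-against-control values are descriptions with no test, and with TMM scaling Sall3 is at 1.43 in Thy1 and −1.13 in cKit cells.

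These values depend on what the libraries are scaled to, because germ cell markers were themselves lower in cKit dKO. Of the 18 germ cell markers, 14 fell and none rose in cKit dKO (median log2 change −1.69, against 0.03 over all genes), 1 fell in Thy1 dKO (median −0.36, all genes 0.03), 7 fell in cKit against Thy1 control (median −0.49, all genes 0.01) and 15 fell in cKit against Thy1 dKO (median −1.79, all genes −0.08). With each gene set against the mean log2 level of these 18 markers in its own library, Sall4 stood 1.19 and 1.18 above the markers in Thy1 control, 0.05 and 0.08 above in Thy1 dKO, and 1.23 and 1.35 above in cKit control. In cKit dKO it stood at −0.06 and −0.35. Both control groups of Sall4 thus lie above both dKO groups on this scale. Sall1 stood at −1.28 and −1.60 in Thy1 control, −2.43 and −2.94 in Thy1 dKO, −1.75 and −2.06 in cKit control and −1.94 and −3.70 in cKit dKO. Its Thy1 groups did not overlap, whereas cKit dKO replicate 1 lay above cKit control replicate 2. Sall3 was at −4.78 and −4.93 in cKit control and −4.37 and −4.31 in cKit dKO, so that its cKit dKO libraries were the higher ones here. For Sall2 all dKO libraries were above all control libraries on this scale too, the nearest being Thy1 dKO replicate 1 at −1.09 and replicate 2 at −1.18 over cKit control replicate 2 at −1.19.

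A second fit was scaled to the germ cell markers, which moved the median log2 change of all genes to 0.72 and 1.67 for the populations in control and in dKO, and to 0.50 and 1.53 for the dKO genotype in Thy1 and cKit cells. In that fit the dKO changes of Sall4 were −1.11 in Thy1 and −1.49 in cKit cells, and those of Sall1 −1.23 and −0.81. Those of Sall2 were 1.11 and 2.33, while Sall3 stood at 1.90 in Thy1 cells and turned to 0.28 in cKit cells. Of the 3 population calls in dKO, that of Sall3 was the one that passed there as well, at −2.85 (edgeR adjusted p = 4.9e-05). The same filter kept Sall3 here through its Thy1 libraries. Sall4 was at −0.22 (edgeR adjusted p = 0.57) and Sall1 at 0.01 (0.99), and Sall2 rose by 2.03 (2.1e-07). In control no Sall gene passed on this scale: Sall4 was at 0.16, Sall1 at −0.41, Sall3 at −1.23 and Sall2 at 0.81, with edgeR adjusted p = 0.70, 0.42, 0.080 and 0.069. The TMM values take no account of germ cell content and describe the RNA of the whole sorted fraction.

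Levels of different genes were compared by RPKM. In Thy1 control the order was Sall4 (10.5 ± 0.40 RPKM), Sall1 (1.60 ± 0.25), Sall2 (0.99 ± 0.044) and Sall3 (0.25 ± 0.025), and every step was larger than the sum of the SDs of its neighbours. In Thy1 dKO Sall4 stood at 3.40 ± 0.10 RPKM and Sall2 at 1.57 ± 0.14, followed by Sall3 at 0.66 ± 0.068 and Sall1 at 0.49 ± 0.14, and these last 2 did not differ beyond their spread. In cKit control the order was Sall4 (8.40 ± 1.26 RPKM), Sall2 (1.28 ± 0.12), Sall1 (0.89 ± 0.31) and Sall3 (0.076 ± 0.023), where Sall2 and Sall1 did not differ beyond their spread. In cKit dKO Sall2 led with 1.70 ± 0.29 RPKM, ahead of Sall4 with 0.86 ± 0.18, Sall1 with 0.13 ± 0.069 and Sall3 with 0.028 ± 0.014.

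The make-up of the family total followed from these levels. Sall4 supplied 77.6% and 80.0% of the summed Sall RPKM in Thy1 control and 79.5% and 78.2% in cKit control. Its share was 54.7% and 56.5% in Thy1 dKO and 25.6% and 37.9% in cKit dKO. Sall2 supplied 7.26% and 7.56% in Thy1 control, 10.2% and 14.2% in cKit control, 26.3% and 25.0% in Thy1 dKO and 67.4% and 57.5% in cKit dKO. The control libraries of both populations thus share a family dominated by Sall4, and in both cKit dKO libraries Sall2 is the larger component. Sall1 ran from 3.14% to 13.4% over the 8 libraries. Sall3 reached 9.64% and 12.0% in Thy1 dKO and was under 2% in every other library. A share does not depend on the scaling of the library, but it does depend on every member.

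**Figure D3:**
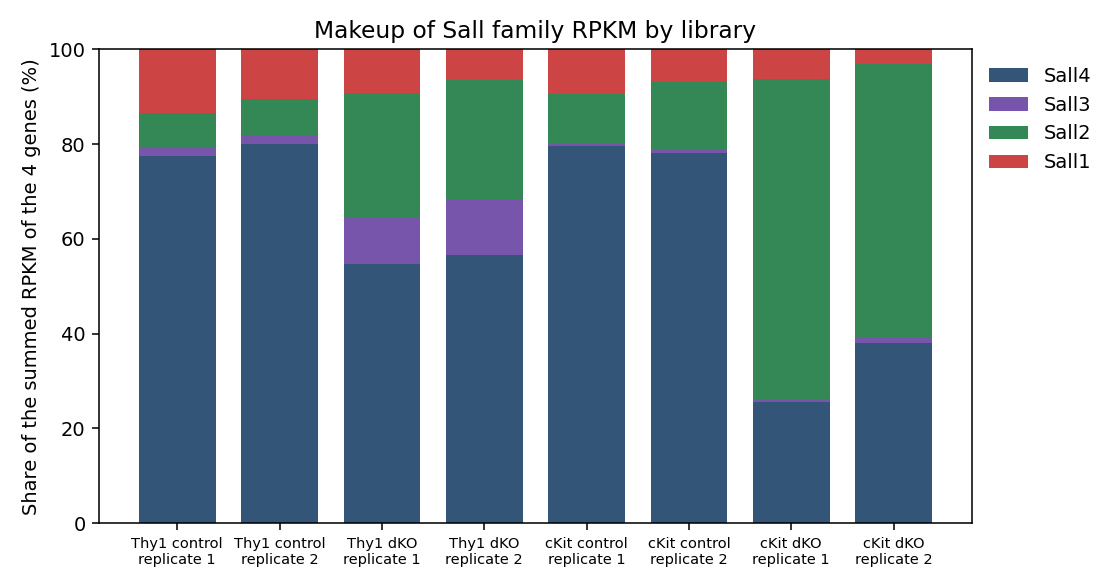
Share of the summed Sall RPKM that each Sall gene supplied, in percent, for each of the 8 libraries. Sall4 holds 77.6% to 80.0% of the total in the 4 control libraries, and Sall2 holds 67.4% and 57.5% in the cKit dKO libraries.

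The 2 deposited entries of Sall2 share their 3′ end, and the longer one begins 12347 bases further upstream. In each library all Sall2 counts were given to one entry and none to the other. The longer entry held them in Thy1 control replicate 1 (123 counts) and cKit dKO replicate 2 (175 counts), and the shorter entry held them in the other 6 libraries. Among 637 symbols with 2 entries and at least 100 counts in every library, 46 had one entry at 0 in every library, and 2 (0.314%), Sall2 and Slc19a1, switched entry between libraries. The replicates of a group are split by this switch, so the entries give no reading of which Sall2 start was used, and the sum of both was taken as the level of the gene. The start without CG dinucleotides and the start with 6, printed above, can therefore not be set against the counts. Because length enters RPKM, the RPKM of Sall2 also depends on the entry.

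**Figure D4:**
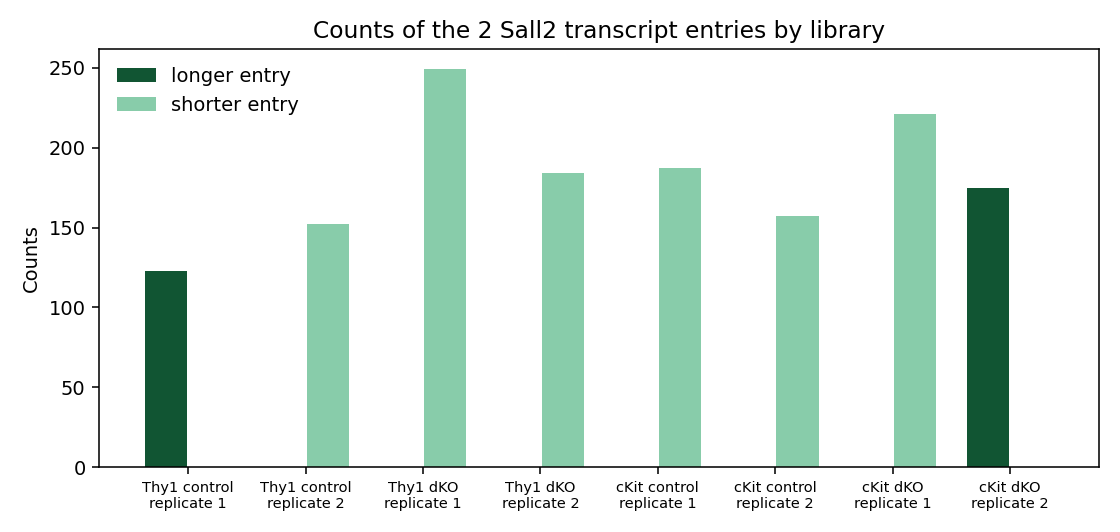
Read counts given to the longer and the shorter deposited Sall2 entry in each of the 8 libraries. Each library has counts in one entry alone, the longer one in Thy1 control replicate 1 and cKit dKO replicate 2.

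NuRD, the complex to which Sall proteins bind, was measured through 15 subunit genes, all of which were tested. In Thy1 dKO none passed the edgeR test (1 had an unadjusted p under 0.05; DESeq2 and limma on log2 RPKM each called 0). Chd4, the remodelling ATPase, was at 0.01 and the deacetylase Hdac1 at −0.04 on the log2 scale, and the list's median was 0.01 against 0.03 over all genes. In cKit dKO 5 subunits fell and 2 rose, with a median of −0.27 against 0.03, where 15.4% of all tested genes fell and 13.2% rose. The deacetylases Hdac1 (−0.70 ± 0.14, edgeR adjusted p = 0.0019) and Hdac2 (−0.57 ± 0.12, 0.0024) and the ATPases Chd4 (−0.39 ± 0.10, 0.008) and Chd5 (−1.09 ± 0.33, 0.022) were among those that fell. Mbd2 (0.57 ± 0.13, edgeR adjusted p = 0.0052) and Mta3 (0.53 ± 0.15, 0.016) rose. Between control populations Chd3 (0.92 ± 0.12), Chd4 (0.43 ± 0.10) and Mta1 (0.46 ± 0.13) rose in cKit cells and none fell (median 0.13, all genes 0.01), and in dKO 3 rose and 3 fell (median 0.01, all genes −0.08). Scaled to germ cell markers, 13 of the 15 rose and none fell in cKit dKO. On that scale 11420 of all 14907 tested genes rose and 69 fell. The list's median was then 1.18 against 1.53 over all genes, so it lay below all genes on both scales. In Thy1 dKO none passed with germ cell scaling (median 0.48, all genes 0.50). In cKit against Thy1 cells 8 rose and none fell in control (median 0.84, all genes 0.72). In dKO 15 rose and none fell (median 1.74, all genes 1.67).

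Of 14 genes of the pluripotency network in which Sall4 takes part in embryonic stem cells, 10 were expressed enough to be tested. The RNA-binding protein gene Lin28a, which marks undifferentiated spermatogonia, was the 1 gene of the list that fell in Thy1 dKO (−1.23 ± 0.15, edgeR adjusted p = 0.0027), and none rose (median −0.19, all genes 0.03). In cKit dKO 4 fell and 2 rose (median −1.39, all genes 0.03), where 15.4% of all tested genes fell and 13.2% rose. Lin28a (−1.87 ± 0.17), its paralog Lin28b (−2.00 ± 0.17), Nr5a2 (−2.31) and Dppa4 (−3.82) fell, and Tbx3 (1.09) and Klf4 (0.42) rose. Dppa4 stood at 0 and 0.16 CPM in cKit dKO, against 1.47 and 1.15 CPM in cKit control. The filter on low counts thus kept Dppa4 through groups where it is higher, and its call is not independent of the filter. Pou5f1, which encodes Oct4, passed in neither (−1.12 ± 0.85 in Thy1 dKO, edgeR adjusted p = 0.61; −2.43 ± 1.22 in cKit dKO, 0.15). In cKit against Thy1 cells 1 rose and 1 fell in control (median −0.38, all genes 0.01) and 1 rose and 5 fell in dKO (median −1.38, all genes −0.08). Lin28a fell in both, by 1.09 ± 0.15 and by 1.73. Scaled to germ cell markers, 4 of the 10 rose and none fell in cKit dKO (median 0.12, all genes 1.53). In Thy1 dKO none passed on that scale, Lin28a included (median 0.28, all genes 0.50). Without that scaling, DESeq2 called 1 gene of the list in Thy1 dKO and limma on log2 RPKM called 0. In cKit against Thy1 cells on the germ cell scale, 2 rose and none fell in control (median 0.32, all genes 0.72). In dKO 3 rose and 1 fell (median 0.37, all genes 1.67).

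Among the spermatogonial factors 13 of 14 were tested. Zbtb16 encodes PLZF, a zinc finger protein that Sall4 binds and that keeps spermatogonia undifferentiated. Its level was 155 ± 16.9 CPM in control and 104 ± 2.78 in dKO for Thy1 cells, and 60.1 ± 2.49 and 26.0 ± 2.54 for cKit cells (SD, n = 2). The dKO change of Zbtb16 was −0.58 ± 0.13 in Thy1 cells (edgeR adjusted p = 0.055) and −1.21 ± 0.14 in cKit cells (3.3e-05), where it fell. Neurog3, an early differentiation factor, was the one gene of the list that fell in Thy1 dKO (−3.93 ± 0.72, edgeR adjusted p = 0.027; list median −0.22, all genes 0.03). Neurog3 stood at 0.23 and 0.54 CPM in Thy1 dKO, against 5.52 and 6.34 CPM in Thy1 control. It was thus kept by the filter on low counts through groups where it is higher, and its call is not independent of the filter. In cKit dKO 4 genes fell and 1 rose (median −0.21, all genes 0.03), where 15.4% of all tested genes fell and 13.2% rose. Dmrt1, a regulator of the choice between mitosis and meiosis, fell (−1.47 ± 0.18, edgeR adjusted p = 3.9e-05), as did Sohlh1 (−2.29 ± 0.28) and Sohlh2 (−1.32 ± 0.19), and Etv5 rose (1.32 ± 0.14). Kit did not pass in either population (−0.06 in Thy1 dKO and 0.06 in cKit dKO). Between control populations 7 fell and 1 rose in cKit cells (median −0.81, all genes 0.01), among them Gfra1, the GDNF receptor gene (−4.32 ± 0.29), and Zbtb16 (−1.37 ± 0.13), while Kit rose (1.68 ± 0.11). In dKO 8 fell and 1 rose (median −1.55, all genes −0.08). Scaled to germ cell markers, 7 of the 13 rose and none fell in cKit dKO (median 1.30, all genes 1.53). In Thy1 dKO none rose and 1 fell on that scale (median 0.23, all genes 0.50). In cKit against Thy1 cells 3 rose and 4 fell in control (median −0.08, all genes 0.72). In dKO 5 rose and 1 fell (median 0.10, all genes 1.67).

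Kidney progenitor factors, the setting in which Sall1 is best known, had 13 of 14 genes tested. None passed in Thy1 dKO (DESeq2 and limma each called 0), and the log2 changes ran from −0.97 to 3.10 (median −0.11, all genes 0.03). Of the 13 genes 7 had an unadjusted p under 0.05, as had 2059 of all 14907 tested genes. In cKit dKO 6 rose and 1 fell (median 0.91, all genes 0.03), where 13.2% of all tested genes rose and 15.4% fell. Osr1 (1.25 ± 0.14), Eya1 (1.21), Gdnf (1.03) and Wt1 (0.97) rose while Cited1 (−0.76) fell. Wt1 is a Sertoli marker too, and of the 14 Sertoli markers 7 rose in cKit dKO and none fell. In cKit against Thy1 cells 1 rose and 4 fell in control (median −0.49, all genes 0.01), with Gdnf (1.42) higher and Six4 (−3.67 ± 0.34) lower, and 3 rose and 3 fell in dKO (median −0.33, all genes −0.08). Scaled to germ cell markers, 9 of the 13 rose and none fell in cKit dKO (median 2.50, all genes 1.53). In Thy1 dKO 2 rose and none fell on that scale (median 0.34, all genes 0.50). In cKit against Thy1 cells 3 rose and 2 fell in control (median 0.21, all genes 0.72). In dKO 7 rose and none fell (median 1.39, all genes 1.67).

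Other developmental C2H2 zinc finger genes (Zic, Gli, Glis, Snai, Zeb, Zfpm, Tshz, Bcl11, Ikzf, Osr and Fezf families and Insm1) had 27 of 33 genes tested. None passed in Thy1 dKO (5 had an unadjusted p under 0.05; DESeq2 and limma each called 0; median 0.25, all genes 0.03). In cKit dKO 14 rose and 3 fell (median 0.59, all genes 0.03), where 13.2% of all tested genes rose and 15.4% fell. Osr1, Gli1 (1.04), Tshz2 (0.79) and Osr2 (0.73) were among those that rose, and Gli3 (−1.07 ± 0.14), Glis1 (−1.67 ± 0.26) and Snai3 (−4.79 ± 0.87) fell. Snai3 stood at 0.32 and 0 CPM in cKit dKO, against 4.16 and 5.49 CPM in cKit control. Its call is not independent of the filter on low counts, which kept it through groups where it is higher. Between control populations 2 rose and 4 fell in cKit cells (median −0.19, all genes 0.01), and in dKO 9 rose and 8 fell (median −0.18, all genes −0.08). Scaled to germ cell markers, 22 of the 27 rose and 1 fell in cKit dKO (median 2.10, all genes 1.53). In Thy1 dKO 1 rose and none fell on that scale (median 0.72, all genes 0.50). In cKit against Thy1 cells 6 rose and 3 fell in control (median 0.51, all genes 0.72). In dKO 18 rose and 2 fell (median 1.60, all genes 1.67). Beside these counts, 9 of 13 peritubular and stromal markers, 5 of 10 endothelial markers and 5 of 8 Leydig markers rose in cKit dKO, and 1 Leydig marker fell. In Thy1 dKO 2 Sertoli, 1 Leydig and 1 endothelial marker rose, and of the peritubular and macrophage markers none passed (4 of 13 and 1 of 11 at an unadjusted p under 0.05; DESeq2 called 1 and 0, limma 0 and 0). Their part in the counts of the lists was not tested.

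The genes beside the Sall loci were examined to see whether the dKO values of the Sall genes extend along the chromosome. Within 500 kb of a Sall start lie 21 tested genes, 1 at Sall1, 14 at Sall2, 2 at Sall3 and 4 at Sall4. In Thy1 dKO none of the 21 passed (1 had an unadjusted p under 0.05; DESeq2 and limma each called 0; median 0.09, all genes 0.03). In cKit dKO 2 of the 21 rose and 1 fell (median 0.22, all genes 0.03), where 13.2% of all tested genes rose and 15.4% fell. All 3 lie near Sall2: Ndrg2 (0.95), Arhgef40 (0.61) and Supt16 (−0.82). The nearest tested neighbours of Sall4 were Atp9a, a flippase gene 25.4 kb away (−0.07 in Thy1 and −0.59 in cKit dKO), and Zfp64, 188 kb away (−0.07 and 0.24). Those of Sall1 were Cyld, 347 kb away (0.27 and 0.18), and Tox3, 1304 kb away, which fell in cKit dKO (−1.65, edgeR adjusted p = 0.0023) and not in Thy1 dKO (−0.26, 0.79). Mettl3, the RNA methyltransferase gene 23.5 kb from Sall2, was at −0.01 and 0.27. Dad1, on the other side of Sall2 and 1925 kb away, was at 0.07 and 0.30. Atp9b, 52.5 kb from Sall3, was at 0.22 and −0.15. Mbp, on the other side of Sall3 and 1489 kb away, was at 0.79 and −0.16. Both Sall4 and Sall3 thus have an Atp9 gene as their nearest tested neighbour. Each also has an Nfatc gene within 500 kb, and both of these fell in cKit against Thy1 cells in control, Nfatc1 beside Sall3 by 1.50 and Nfatc2 beside Sall4 by 0.94. Mettl3 (−0.56) fell as well in that comparison. There 3 of the 21 fell and none rose, where 10.3% of all tested genes fell and 9.46% rose. In dKO 2 of the 21 rose and 4 fell in cKit cells, where 14.8% of all tested genes rose and 20.0% fell. Nfatc1 (−1.63) and Nfatc2 (−1.22) were among the 4.

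**Figure D5:**
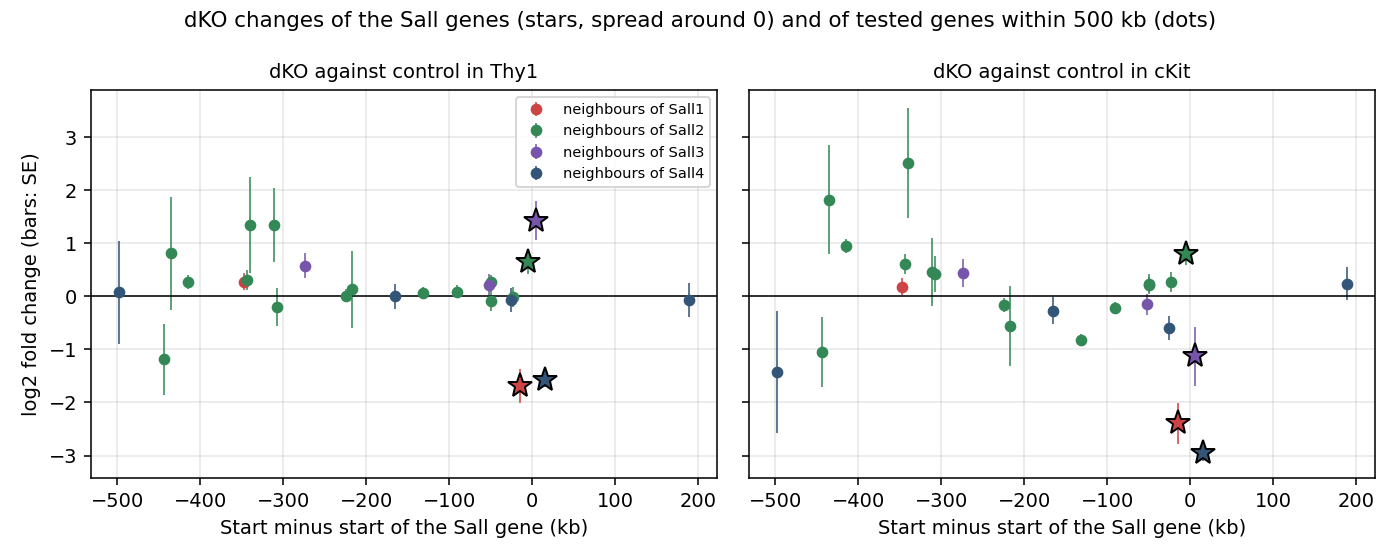
Log2 change in dKO against control of tested genes near each Sall gene, by distance from the Sall start in kilobases, in Thy1 and in cKit cells, with the Sall genes as stars spread around 0 and bars of 1 standard error. In Thy1 cells no neighbour within 500 kb passed the test. In cKit cells 3 did, all near Sall2, where 28.6% of all tested genes passed.

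Last, all 10235 tested genes with a mean log2 CPM of at least 3 were ranked by how closely their log2 CPM followed each Sall gene over the 8 libraries. These correlations describe 8 libraries in 4 groups that share the genotype and population steps and the germ cell content, and carry no test. Sall1 and Sall4 followed each other at Pearson r = 0.94. This value follows in part from the choice of the genes, since both were known to be lower in both dKO populations. Sall2 ran opposite to Sall4 at −0.91 and to Sall1 at −0.80. Sall3 was at 0.46 with Sall4, 0.48 with Sall1 and −0.19 with Sall2. The 5 genes closest to Sall4 were Fxr1 (0.997), Copb2 (0.997), Lsm14b (0.995), Pramef12 (0.995) and Me2 (0.991). Among them Pramef12 had the dKO changes nearest in size to those of Sall4, −1.25 in Thy1 and −2.29 in cKit cells, whereas Fxr1 was at −0.30 and −0.62. Closest to Sall1 were 2410018M08Rik (0.990), Klhl12 (0.989), Usp28 (0.983), Lyrm4 (0.982) and Cbwd1 (0.977). Closest to Sall2 were Arrb1 (0.981), Phldb2 (0.978), Rnf144a (0.971), Kdm5d (0.969) and Map4k4 (0.967). By Spearman's rho, Fxr1, Pramef12 and Me2 are among 17 genes that tie with Sall4 at a rho of 1, and 2410018M08Rik and Cbwd1 among 5 that tie with Sall1 at 1. All 5 genes named for Sall2 were below the highest rho with it, so for Sall2 the names depend on the measure.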

How the data were processed

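Per the labels' protocols, total RNA was amplified with NuGEN Ovation and read on a HiSeq as Nextera XT libraries. STAR 2.4.2a aligned the reads to mm10, per the submitters' processing notes, and the counting tool and its strand setting are not given in the sources used here. Each deposited table gives, per the file headers, read counts and RPKM for 26099 RefSeq entries under 23343 symbols. The deposited counts are whole and not normalized, and RPKM is the authors' value per kilobase of transcript, scaled to library size. Counts and RPKM were summed per symbol. Amplified reads without molecular identifiers are not independent molecules. One entry, Rn45s, held 8.42% to 13.6% of the counts of a library.

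Counts were fitted with edgeR 4.0.16 in R 4.3.3: filterByExpr by group (14907 genes, all 4 Sall genes among them), TMM scaling, 1 mean per group over all 8 libraries with 4 residual degrees of freedom, and two-sided quasi-likelihood tests with Benjamini-Hochberg adjustment at 0.05. The standard error is the absolute log2 change over the square root of F. The fit had a common dispersion of 0.0222 and 11.0 prior degrees of freedom.

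The Sall genes, the gene lists and the rule for named genes were chosen with earlier results of these data known. Named genes were the 4 Sall genes; in each list and comparison up to 4 genes of smallest p in each direction among those past the test; Zbtb16, Kit, Lin28a, Pou5f1, Chd4, Hdac1 and Dmrt1 in any case; the 5 genes of highest Pearson correlation with Sall4, Sall1 and Sall2; the nearest tested gene on each side and genes past the test within 500 kb; and Ring1, Rnf2 and Thy1. Not every gene the rule allows is printed. Slc19a1 was named after its values were seen. Alternatives were DESeq2 1.42.0, its size factors, library totals, no filter, germ cell scaling, fits of 4 libraries, limma 3.58.1 on log2(RPKM + 0.1), a replicate block and leaving out each library. The labels number the libraries with database records whose ranges differ between the populations, so record range and population cannot be told apart.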

Additional observations from a re-analysis of the deposited data

Results flagged for a closer look

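Sall3 moved in opposite directions with the dKO genotype in the 2 populations. Its log2 change was 1.43 in Thy1 cells, where both dKO libraries were above both controls, and −1.13 in cKit cells, where both dKO libraries were below both controls. The difference was not tested, since both contrasts were used in choosing the genes, and the cKit value turned to 0.28 when scaled to germ cell markers.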

How the results depend on the processing

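Of 255 recomputed values of the Sall genes, 229 kept their direction and call or, for the untested dKO changes, moved by less than a set spread. That spread is the square root of the summed replicate variances of log2 CPM in the 2 groups. It is wider for genes whose replicates differ more. Germ cell scaling gave, for Sall1, Sall2, Sall3 and Sall4 in that order, dKO changes of −1.23, 1.11, 1.90 and −1.11 in Thy1 and −0.81, 2.33, 0.28 and −1.49 in cKit cells. For cKit against Thy1 it gave −0.41, 0.81, −1.23 and 0.16 in control and 0.0099, 2.03, −2.85 and −0.22 in dKO. Under it 4871 (4390 higher, 481 lower), 11728 (11567, 161) and 11489 (11420, 69) genes passed for cKit against Thy1 in control, in dKO, and dKO in cKit, against 2939 (1410, 1529), 5190 (2202, 2988) and 4259 (1965, 2294) with TMM; for Thy1 dKO 109 (105, 4) passed against 93 (54, 39). Library totals split the calls 1666 to 3797 for the populations in dKO and 1278 to 3007 in cKit dKO. With limma on log2 RPKM, Sall1, Sall3 and Sall4 were at −0.81, −0.98 and −0.33 between control populations, Sall2 at 0.38 in cKit dKO, and Sall3 at 1.13 and −0.46 in Thy1 and cKit dKO. That fit split the calls 2418 to 910 between control populations and 443 to 4042 in cKit dKO, and called 6 genes in Thy1 dKO. Thy1 dKO counts were 563 with no filter, 330 with DESeq2 and 870 in a fit of its 4 libraries, in which no cKit library adds to the spread. In the fit of the 4 cKit libraries Sall3 was not tested.

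Leaving out one library at a time gave, in the order control populations, dKO populations, Thy1 dKO and cKit dKO, −1.44 to −0.83, −2.45 to −1.24, −2.03 to −1.43 and −3.08 to −1.88 for Sall1. The ranges were −0.080 (without cKit control replicate 2) to 0.24, 0.13 to 0.48, 0.55 to 0.72 and 0.65 to 1.0 for Sall2. They were −2.22 to −1.72, −4.96 to −3.99, 1.27 to 1.61 and −1.65 to −0.69 for Sall3, and −0.63 to −0.47, −2.04 to −1.67, −1.64 to −1.51 and −3.10 to −2.73 for Sall4. Counts of genes ran 1717 to 3575, 3101 to 5245, 3 to 400 and 2386 to 3972; the lone library left in a group is assumed to vary like the others. The cause of these shifts was not tested. With a replicate block 2958, 5127, 157 and 4217 genes passed and no Sall call changed. Deviations of same-numbered libraries correlated at 0.05, 0.01, −0.05 and 0.02, so no shift shared by number was seen. This cannot show whether same-numbered libraries share an animal or a preparation, which the labels do not say.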
